A study of Saccharomyces cerevisiae with 10 samples.

Results

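In [PSI+] yeast cells, the number of ribosome footprints on each gene was set against the level of its mRNA. Of 6608 features counted, 4244 had 50 or more mRNA reads and a mean of 10 or more footprint reads, and these are the genes described here. They held 96.9% and 96.4% of the reads of the 2 footprint libraries and 99.1% of the reads of the mRNA library. All but 12 of them are annotated as protein coding in RefSeq: 7 are not in RefSeq, 1 is the pseudogene FLO8, and the others are the untranslated RNAs SCR1, RPR1, NME1 and TLC1.

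The cells were Saccharomyces cerevisiae strain 74D694 carrying the prion [PSI+], grown in the rich medium YPD at 30 °C and exposed to cycloheximide, an inhibitor of elongation that holds ribosomes on the message. The isogenic [psi-] strain was grown and treated in the same way and is used here only as a second set of libraries. [PSI+] is the aggregated, self-propagating form of Sup35, the release factor eRF3. Both footprint libraries held 2497170 and 3257673 reads, and the mRNA library held 5494957. The [psi-] footprint libraries held 3461402 and 3579039 reads and the [psi-] mRNA library 2480012.

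A footprint is the piece of mRNA that a ribosome protects from nuclease. Dividing the footprint level of a gene by its mRNA level gives a measure of how densely ribosomes load that message, commonly called translation efficiency. In growing yeast, messages for the translation apparatus and for abundant enzymes are known to be well loaded, and some regulatory messages carry short upstream reading frames that hold ribosomes back. As a scaling factor, gene length cancels in the ratio, but it does not cancel in a share of reads, which counts ribosomes. Whether the ratio itself varied with length was not analysed here.

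The ratio is the footprint level over the mRNA level, both in counts scaled to the total reads of the library (CPM). It is given as log2, averaged over the 2 footprint libraries, with the median of all 4244 genes set to 0, so that 1 means 2-fold more footprints per mRNA than the median gene. Both ratios of a gene rest on the same mRNA library, so the SD between them holds no error of the mRNA measurement. Genes were called higher or lower at an adjusted p under 0.05 in edgeR's quasi-likelihood test (Benjamini-Hochberg adjustment over all 4244 genes), which assumes that the 1 mRNA library varies like the footprint pair. By this test, 1293 genes (30.5%) had more footprints per mRNA than the average gene and 1278 (30.1%) had fewer, and every list below can be read against these shares.

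Footprint-to-mRNA ratios differed widely between genes. The lowest 5% of genes lay at -2.82 or below and the highest 5% at 3.04 or above, a 58.4-fold span, and the middle 50% of the genes ran from -1.12 to 1.19. The SD over genes was 1.78, against a median SD of 0.2 between the 2 footprint libraries of the same gene. The second SD holds no error of the 1 mRNA library. Spread in loading and spread in the mRNA measurement therefore cannot be told apart here. In both libraries 3904 genes (92.0%) lay on the same side of the median. Across genes, log2 footprint levels correlated with log2 mRNA levels at Pearson's r = 0.57, and the footprint libraries with each other at r = 0.97; both are descriptions over 4244 genes, which are not independent replicates.

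**Figure D1:**
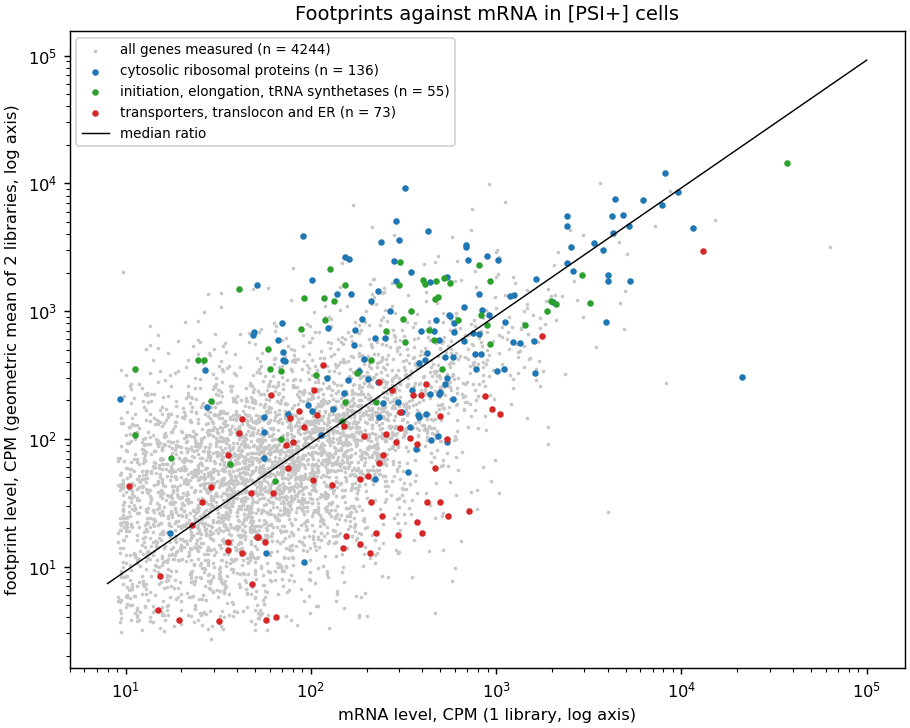
Each point is 1 of the 4244 genes, with its mRNA level (CPM, log axis) across and its footprint level (CPM, geometric mean of 2 libraries, log axis) up; the line marks the median ratio. Initiation and elongation factor and tRNA synthetase genes lie mostly above the line, transporter, translocon and ER genes mostly below it, and ribosomal protein genes spread on both sides.

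The ends of this range were held by different kinds of gene. Among protein-coding genes with 200 or more mRNA reads, the 10 highest ratios included 4 ribosomal protein genes, 1 glycolytic enzyme and enzymes of amino acid and methyl group metabolism. ILV5 (YLR355C), a mitochondrial enzyme of branched-chain amino acid synthesis, stood at 169 CPM of mRNA and at 6730 and 6840 CPM of footprints. Its log2 ratio was 5.45 ± 0.05 (SD, n = 2; edgeR adjusted p = 9.2e-05). DPS1 (YLL018C), the cytosolic aspartyl-tRNA synthetase, stood at 41.1 CPM of mRNA and at 1460 and 1530 CPM of footprints, a log2 ratio of 5.30. Footprint levels of both genes were nearly equal in the 2 libraries and more than 30-fold above the mRNA level.

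RPS15 (YOL040C), a small-subunit ribosomal protein with a single gene, had a log2 ratio of 5.07, and NOP2 (YNL061W), a methyltransferase of large-subunit rRNA, had 5.05. RPL39 (YJL189W), a very short large-subunit protein, reached 8490 and 10100 CPM of footprints from 324 CPM of mRNA, a log2 ratio of 4.95. ALD6 (YPL061W), the main cytosolic acetaldehyde dehydrogenase, had 4.89, and SAH1 (YER043C), which hydrolyses S-adenosylhomocysteine, had 4.79. RPL8B (YLL045C, log2 ratio 5.55), TDH3 (YGR192C, 4.54) and RPL43A (YPR043W, 4.27) complete the 10 highest, but each has a near-identical copy in the genome, with which its reads may have been shared, so their ratios are uncertain. RPL8B also varied most between libraries, at 5410 and 2790 CPM of footprints. All 10 were called higher by edgeR's test.

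At the low end, 8 of the 10 genes make proteins of membranes or of the secretory pathway. SFT1 (YKL006C-A), a Golgi SNARE that acts in vesicle fusion, had the lowest ratio of all these genes, with 22224 mRNA reads (4040 CPM) against 71 and 82 footprint reads (28.4 and 25.2 CPM). Its log2 ratio was -7.12 ± 0.19 (SD, n = 2; edgeR adjusted p = 3.9e-05). YRO2 (YBR054W), a plasma membrane protein of the opsin-like family, had 2560 mRNA reads against 17 and 9 footprint reads (log2 ratio -6.63). ADP1 (YCR011C), a membrane protein of the ABC transporter family, had 3194 mRNA reads against 15 and 32 footprint reads (-6.12). In each of these genes both footprint libraries were far below the mRNA level.

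ALE1 (YOR175C), a membrane-bound lysophospholipid acyltransferase, had 3282 mRNA reads against 31 and 25 footprint reads, a log2 ratio of -5.82. BPT1 (YLL015W), a vacuolar ABC transporter, stood at -5.50; TRE2 (YOR256C), a membrane protein that helps to sort metal transporters, at -5.33. MNT3 (YIL014W), a Golgi mannosyltransferase, stood at -5.29 and PEP1 (YBL017C), the sorting receptor for vacuolar carboxypeptidase Y, at -5.22. The exceptions were POL4 (YCR014C), a nuclear DNA polymerase of the repair type, at -5.38, and RPL41B (YDL133C-A), which makes the shortest ribosomal protein, at -6.00. RPL41B had 116471 mRNA reads against 3087 and 244 footprint reads, so its 2 libraries differed more than those of any other gene, and it has a near-identical copy (RPL41A); its adjusted p was 0.0068 with edgeR and 0.056 with DESeq2.

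**Figure D2:**
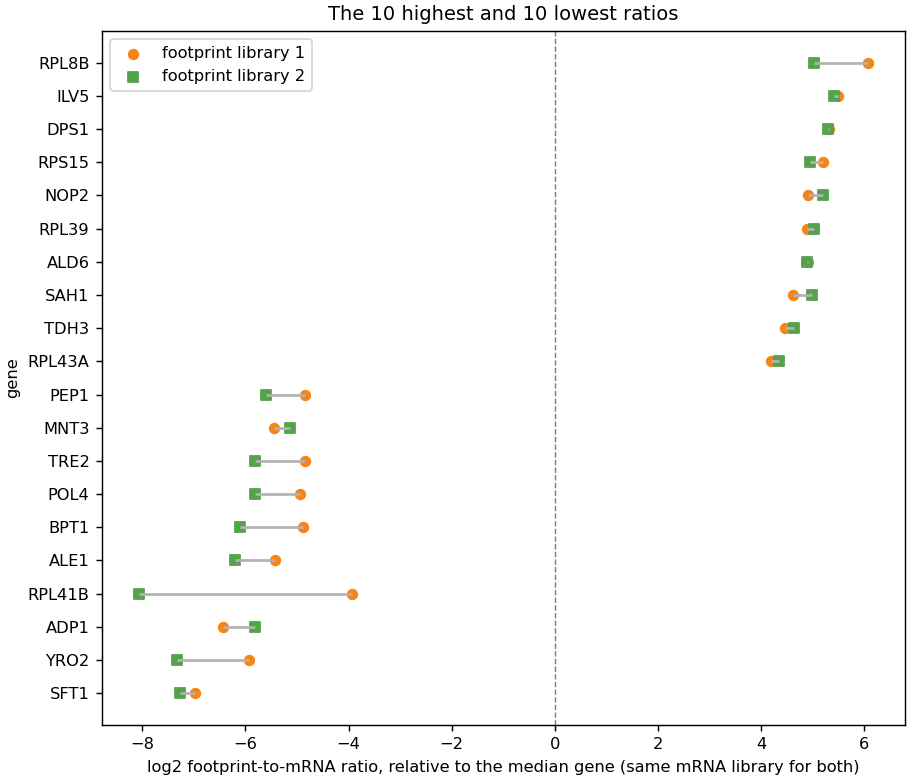
Log2 footprint-to-mRNA ratios relative to the median gene (across) of the 10 highest and 10 lowest protein-coding genes with 200 or more mRNA reads, 1 symbol per footprint library. RPL8B leads at 6.07 and 5.02, SFT1 is lowest at -6.98 and -7.26, and RPL41B has the widest gap, from -3.93 to -8.07.

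Most ribosomes sat on few genes. In the 2 footprint libraries 214 and 250 genes held 50% of the reads, against 178 genes in the mRNA library. The 10 most occupied features, ranked by footprints, held 10.2% and 8.91% of footprints and 8.0% of mRNA reads. Among these was the untranslated RNA RPR1, with 0.797% and 0.965% of the reads of the footprint libraries. The top 100 features held 37.1% and 34.4% of footprints against 30.6% of mRNA reads. Ranked within each library, the 10 most abundant features held more of the mRNA reads (19.7%) than of the footprints (10.2% and 8.98%). The mRNA top is led by SCR1, the untranslated RNA of the signal recognition particle, which alone took 6.38% of the mRNA reads and 0.3% and 0.338% of the footprints.

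**Figure D3:**
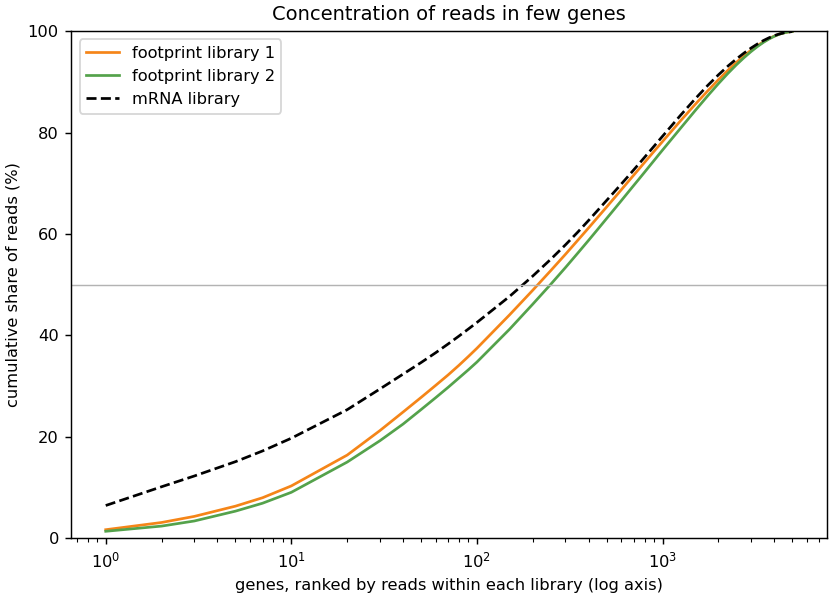
Cumulative share of library reads (%, vertical) held by the genes with the most reads in that library (number of genes on a log axis). The mRNA library starts highest, with 19.7% of reads in its top 10 features, and reaches 50% at 178 genes, before the footprint libraries at 214 and 250.

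The gene with the most footprints was YEF3, the fungal elongation factor 3, with 1.61% and 1.29% of all footprints. It also held 3.7% of the mRNA reads, so its log2 ratio was -1.24, at the threshold of the test (edgeR adjusted p = 0.052). It was called lower with DESeq2 (adjusted p = 0.005), with each other scaling, without a minimum, without untranslated RNAs and with all 6 YPD libraries in the fit. The log2 ratios there ran from -1.43 to -1.24. It missed the threshold with counts as deposited (0.056) and with the higher minimum counts (0.050, both edgeR). With the first or second footprint library left out the log2 ratio was -1.61 or -1.20. All these settings reuse the same [PSI+] libraries and are not independent support. Next came RPS12, with 1.42% and 1.03% of footprints. The glycolytic enzymes FBA1 (aldolase), PDC1 (pyruvate decarboxylase) and CDC19 (pyruvate kinase) were also among the 10 most occupied protein-coding genes. Their shares of footprints were 1.05% and 0.979%, 1.2% and 0.811%, and 0.759% and 0.665%, from 0.365%, 0.0918% and 0.112% of the mRNA reads. All 3 were called higher by edgeR's test, at log2 ratios of 1.59, 3.55 and 2.79.

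The remaining places among the 10 went to ribosomal protein genes: RPL39, RPS31, RPL3, RPL28 and RPS3. RPL39 was called higher. The log2 ratios of RPS12 (0.68), RPS31 (-0.03), RPL3 (0.90), RPL28 (0.38) and RPS3 (-0.11) did not pass edgeR's test; each of these had between 0.437% and 0.954% of the mRNA reads. High occupancy thus came with a high mRNA level in some of the 10 genes and with a high ratio in others.

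Ribosomal protein genes as a group held 23.5% and 19.3% of all footprints and 17.5% of the mRNA reads. Of 138 genes of the cytosolic ribosome, 136 were measured; 48 (35.3%) were called higher and 22 (16.2%) lower, with a median log2 ratio of 0.42. The median was 0.81 in the first footprint library and 0.28 in the second. With the first footprint library left out of a fit over all YPD libraries, 69 were called higher and 60 lower; with the second left out, 82 and 40. Split by subunit after ratios had been seen, the large-subunit genes had a median of 0.72 (79 genes, with library medians of 1.06 and 0.40) and the small-subunit genes one of 0.23 (57 genes, with library medians of 0.33 and -0.10). Near-identical copies are found for 116 of the 136, and the reads of such pairs cannot be assigned with certainty. Of the 17 genes whose 2 libraries differed more than 4-fold, 11 are ribosomal protein genes with such a copy. RPL11B, for example, had 3146 and 392 footprint reads, and RPS4B had 679 and 4529. Mitochondrial ribosomal protein genes lay lower, with 14 of 63 called higher, 23 lower and a median of -0.38; MRP49 was highest (4.65) and MRPS35 lowest (-3.31).

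Translation factors were among the best loaded groups. Of 27 measured initiation factor genes, 16 (59.3%) were called higher and 1 (3.7%) lower, with a median log2 ratio of 1.58. With a minimum of 100 mRNA and 20 footprint reads, 24 of them were left. Of these, 14 were called higher and 1 lower, with a median of 1.06 in edgeR's fit. TIF6, an anti-association factor of the large subunit, was highest of the 27 at 5.08, with 11.3 CPM of mRNA against 365 and 337 CPM of footprints. This ratio rests on few mRNA reads. PAB1, the poly(A)-binding protein, had 127 CPM of mRNA against 2250 and 1990 CPM of footprints, a log2 ratio of 4.17, and SUI2, the alpha subunit of eIF2, had 4.19. TIF35, a subunit of eIF3, was the only one called lower (-1.34, edgeR adjusted p = 0.016), with 3210 CPM of mRNA against 931 and 1460 CPM of footprints. Its eIF3 partners TIF34 (3.21) and RPG1 (3.16) were called higher, and PRT1 (0.83) and NIP1 (0.57) were not called. Subunits of a single complex therefore spanned more than 4 log2 units.

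Of 8 elongation factor genes, 6 were called higher, with a median of 2.48. None was called lower, but YEF3 lay at the threshold and was called lower in most alternative settings; EFT2 (0.66) was not called. DESeq2 called 5 higher and 1 lower. EFB1, the exchange factor of eEF1A, had 304 CPM of mRNA against 2400 and 2450 CPM of footprints (log2 ratio 3.12). TEF1 (3.54) and TEF2 (3.90), which both encode eEF1A, and EFT1 and EFT2, which both encode eEF2, are near-identical pairs and their values are uncertain. The 20 cytosolic aminoacyl-tRNA synthetase genes had 13 called higher and none lower, with a median of 1.56; when all 6 YPD libraries shared 1 estimate of the spread, 4 were called lower, as were 4 of the initiation factor genes. They ran from DPS1 (5.30) through FRS2 (4.08), a phenylalanyl-tRNA synthetase subunit, to GLN4 (-0.80, edgeR adjusted p = 0.063), the glutaminyl-tRNA synthetase.

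Termination and recycling factors were mixed, with 6 of 11 called higher and 2 lower. SUP45, which encodes the release factor eRF1, had 150 CPM of mRNA against 443 and 394 CPM of footprints. Its log2 ratio was 1.60 ± 0.19 (SD, n = 2; edgeR adjusted p = 0.0029). SUP35, which encodes its partner eRF3 and the prion protein itself, had 493 CPM of mRNA against 308 and 315 CPM of footprints. Its log2 ratio was -0.54 ± 0.05 (SD, n = 2) and did not pass edgeR's test (adjusted p = 0.12). TMA22, a ribosome recycling factor, was highest (4.18), and DOM34 (2.62) and HBS1 (1.72), which rescue stalled ribosomes, were called higher. RLI1 (-0.72), the ABC protein that splits ribosomes after termination, and TPA1 (-0.89), a hydroxylase acting with the release factors, were called lower. HSP104, the disaggregase needed to pass on the prion, had a log2 ratio of 0.14 (edgeR adjusted p = 0.76). ADE1, the purine synthesis gene that carries the nonsense reporter allele in this strain background, had 173 CPM of mRNA against 668 and 994 CPM of footprints (log2 ratio 2.36, edgeR adjusted p = 0.001).

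Ribosome biogenesis factors and transcription factors were also loaded above the median. Of 109 biogenesis genes, 58 (53.2%) were called higher and 14 (12.8%) lower, with a median of 0.88. NOP2 was highest; ENP1 (4.91), a small-subunit assembly factor, and NOP12 (4.61), an rRNA processing protein, followed, while UTP20 (-1.94) was lowest. CBF5, the pseudouridine synthase of rRNA, was called lower (-1.66) at a high mRNA level of 4950 CPM. Of 76 measured genes for sequence-specific transcription factors, 39 (51.3%) were called higher and 7 (9.21%) lower, with a median of 0.80. MCM1 (4.31), a regulator of cell cycle and mating genes, and PHO4 (4.22), the activator of phosphate genes, were highest. GCR1 (-2.21), the activator of glycolytic genes, was lowest. Both leading genes had little mRNA, with 95 reads for MCM1 and 116 for PHO4. A minimum of 100 mRNA and 20 footprint reads left 61 of the 76, with a median of 0.60.

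**Figure D4:**
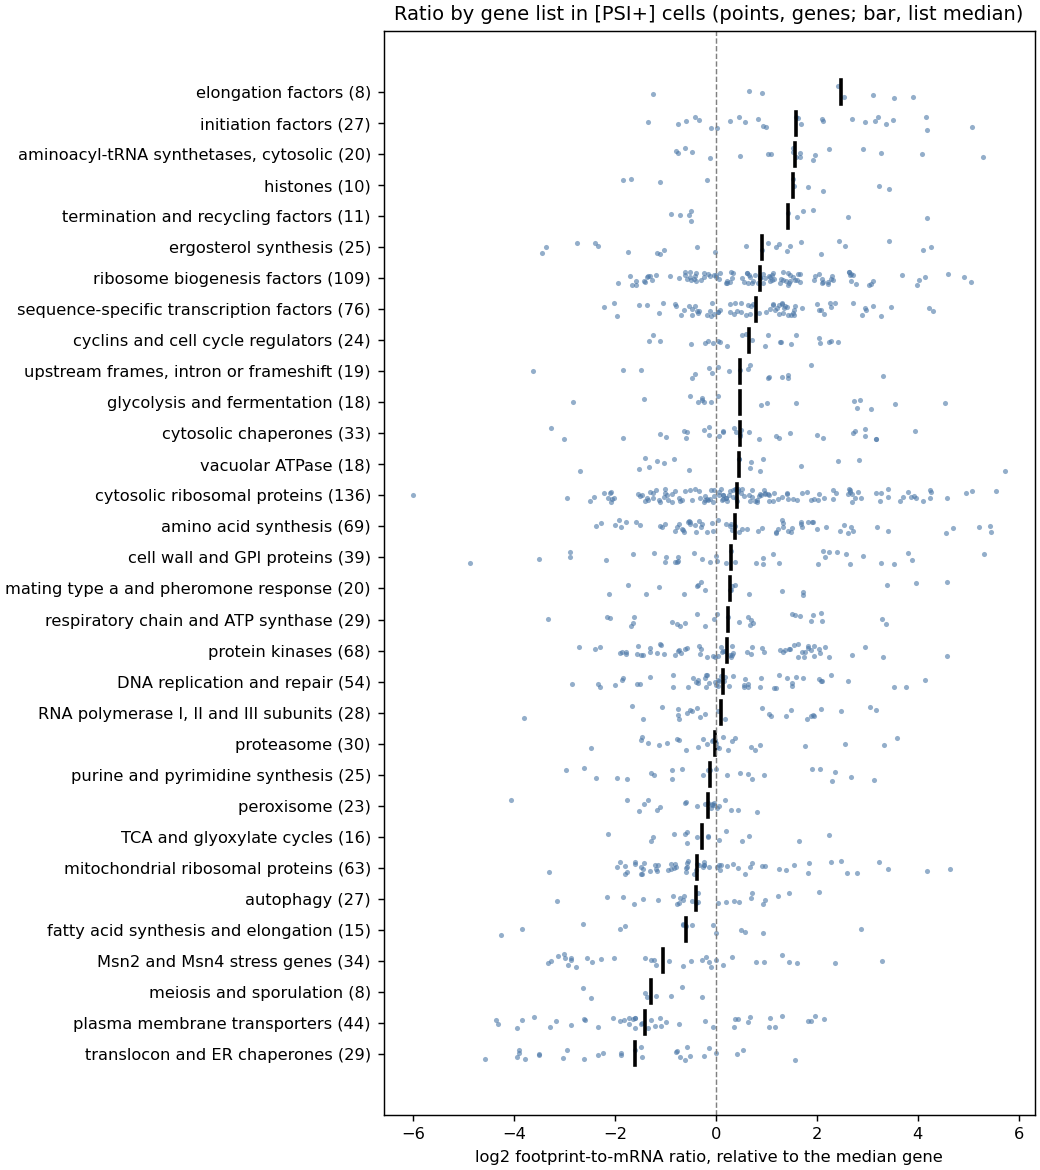
Log2 footprint-to-mRNA ratio relative to the median gene (across) for each measured member of the gene lists with 8 or more of them, leaving out the lists drawn up after ratios had been seen (points) and the list median (bar), with the number measured in brackets. Elongation factors (2.48), initiation factors (1.58) and tRNA synthetases (1.56) have the highest medians of the lists plotted, and translocon and ER genes (-1.61) and plasma membrane transporters (-1.41) the lowest.

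Genes for plasma membrane transporters carried few footprints. Of 60 listed genes 44 were measured, of which 8 (18.2%) were called higher and 28 (63.6%) lower, with a median log2 ratio of -1.41. Together the listed genes held 2.27% of the mRNA reads and 0.736% and 0.69% of the footprints. PMA1, the proton pump of the plasma membrane, had 13100 CPM of mRNA against 3180 and 2730 CPM of footprints (log2 ratio -2.03, edgeR adjusted p = 0.0028). ITR1, a myo-inositol transporter, was lowest at -4.35, with 549 CPM of mRNA against 20 and 30.7 CPM of footprints, and TRK1, a potassium transporter, had -4.31. At the other end, TPO3 (2.15) and TPO1 (1.97), polyamine exporters, and CAN1 (1.88) and LYP1 (1.82), permeases for arginine and lysine, were called higher. BAP3 (-3.84) and TAT1 (-2.87), amino acid permeases as well, were called lower, so permeases of 1 family lay at both ends.

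The list of translocon, signal recognition and ER folding genes had 20 of 29 measured members called lower (69.0%) and 1 higher (3.45%), with a median of -1.61. SEC63, a membrane partner of the translocon, had 3903 mRNA reads against 71 and 86 footprint reads (log2 ratio -4.58). KAR2, the Hsp70 of the ER lumen, had 1050 CPM of mRNA against 163 and 151 CPM of footprints (-2.62, edgeR adjusted p = 0.00015). LHS1, another lumenal member of that family, had -3.94, and ERO1, the oxidase of the ER, was not called (-0.23, edgeR adjusted p = 0.45). PDI1, protein disulfide isomerase, was the only member called higher (1.56), with 40.9 CPM of mRNA against 102 and 121 CPM of footprints.

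Glycosylation enzymes were lower still; their lists, like the others in this paragraph and the next, were drawn up after ratios had been seen, so their counts describe them and support nothing. All 7 protein O-mannosyltransferase genes were called lower, from PMT1 (-1.77) to PMT4 (-4.22), with a median of -2.39. Of 20 measured Golgi mannosyltransferase genes 17 were called lower and none higher, with a median of -3.08. MNN10, a subunit of a mannan-extending complex, had 5130 mRNA reads against 141 and 127 footprint reads, and its log2 ratio was -4.19. MNN2 (0.52), MNN4 (-0.11) and HOC1 (-0.71) were not called, and all 3 had under 200 mRNA reads. The oligosaccharyltransferase had 4 of 5 measured subunit genes called lower, among them its catalytic subunit STT3 (-3.51). MNN11, another Golgi mannosyltransferase gene, missed the footprint minimum, with 658 mRNA reads against 11 and 5 footprint reads.

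Within some complexes and pathways, soluble and membrane members were set side by side. For the vacuolar proton pump, the soluble V1 sector had 4 of 8 genes called higher and 1 lower, with a median of 0.90, and the membrane V0 sector 1 of 7 higher and 5 lower, with a median of -1.33. VMA4 of V1 had 27.7 CPM of mRNA against 1390 and 1310 CPM of footprints (log2 ratio 5.73), and VMA3, the proteolipid of V0, had 661 CPM against 202 and 220 CPM (-1.53). VMA9, also of V0, was called higher (2.42), and VMA5 of V1 was called lower (-1.03). In the sterol pathway, 6 of 7 soluble enzyme genes were called higher and none lower (median 1.25), against 7 higher and 9 lower of 18 membrane enzyme genes (median -0.71). ERG13, HMG-CoA synthase, had 4.10, while HMG1 (-2.33) and HMG2 (-3.36), the membrane-bound HMG-CoA reductases, were called lower. Of 17 measured genes of membrane ABC transporters 12 were called lower and 1, PDR12 (1.32), higher, with a median of -1.91. The 5 measured soluble ABC proteins had 2 called higher and 2 lower, with a median of -0.72. In fatty acid synthesis none of the 3 soluble enzyme genes was called (median -0.47), against 1 higher and 4 lower of 6 membrane desaturase and elongase genes (median -1.85). These 2 soluble sets thus also had medians below that of all genes. So did the 6 signal recognition particle protein genes, a soluble set as well, with 4 called lower, none higher and a median of -0.74. Each of these splits had exceptions, and the difference between the soluble and membrane sets was not tested.

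**Figure D5:**
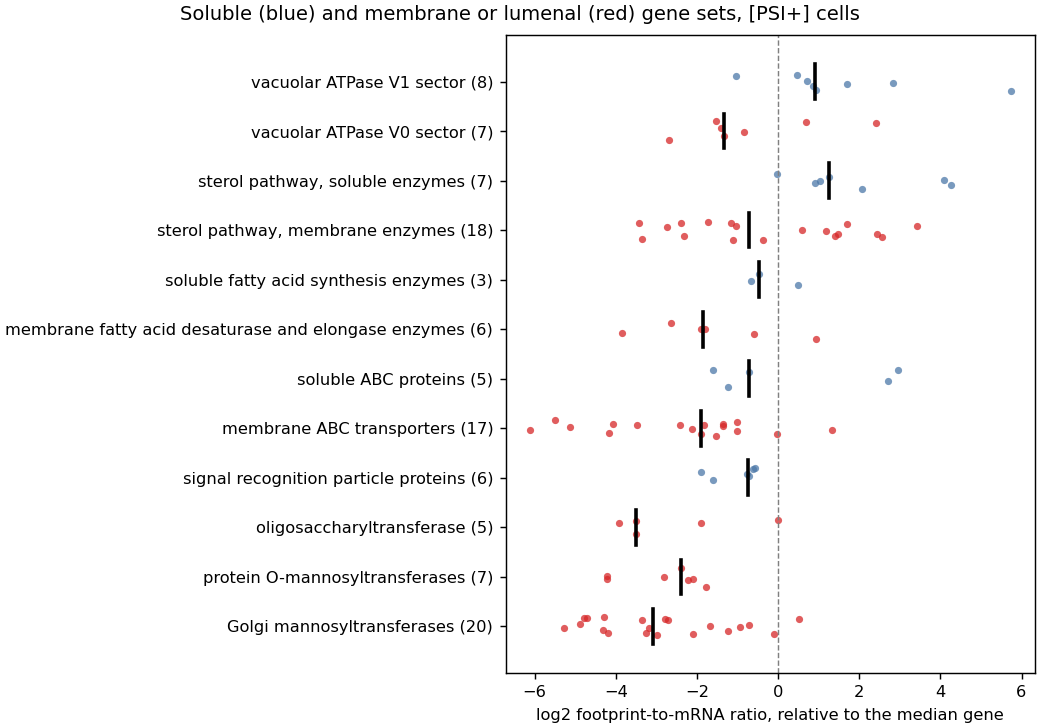
Log2 footprint-to-mRNA ratio relative to the median gene (across) for gene sets of soluble proteins (blue) and of membrane or lumenal proteins (red), with points for genes and bars for medians; the sets were drawn up after ratios had been seen. V1 (0.90) and the soluble sterol enzymes (1.25) lie right of the median gene, and Golgi mannosyltransferases (-3.08) and oligosaccharyltransferase (-3.50) far left. The other soluble sets also lie left of it: fatty acid synthesis enzymes (-0.47), ABC proteins (-0.72) and signal recognition particle proteins (-0.74).

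In [PSI+], not all secreted proteins were poorly loaded. Of 39 cell wall and GPI-anchored protein genes, 17 (43.6%) were called higher and 10 (25.6%) lower, with a median of 0.29. In the [psi-] libraries 37 of them were measurable, and their median was -0.91. The wall proteins UTH1 (5.32), HSP150 (3.88) and CWP2 (3.80) were highest. UTH1 had 26.6 CPM of mRNA against 812 and 1180 CPM of footprints. The lowest were GSC2 (-4.88), a glucan synthase subunit of the membrane, and CHS3 (-3.51), a chitin synthase of the membrane; CHS2 (2.41), another chitin synthase, was called higher. GAS1, a GPI-anchored glucan remodelling enzyme, was called lower (-2.18).

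Metabolic genes spanned the range. The 21 listed genes of glycolysis and fermentation held 6.13% and 5.2% of footprints and 3.52% of mRNA reads; of 18 measured, 8 were called higher and 2 lower, with a median of 0.48. PFK2 (3.08) and PFK1 (2.74), the subunits of phosphofructokinase, were called higher. GPM1, phosphoglycerate mutase, was called lower (-1.43), with 15200 CPM of mRNA against 5590 and 4810 CPM of footprints. PGK1 (-0.28) and TPI1 (0.90) were not called. TDH1 (-2.84), the glyceraldehyde-3-phosphate dehydrogenase isoenzyme of non-growing cells, was lowest, though it belongs to the near-identical TDH family. Of 69 amino acid synthesis genes 31 (44.9%) were called higher and 14 (20.3%) lower, with a median of 0.38. They ran from ILV5, THR4 (5.44) and LYS1 (5.22) down to LYS12 (-2.28) and ARG2 (-2.38), so that the lysine pathway alone held genes at both ends. Genes of the TCA and glyoxylate cycles (median -0.27, 2 of 16 higher, 4 lower), the respiratory chain (0.24, 9 of 29 higher, 9 lower), the proteasome (-0.02, 6 of 30 higher, 8 lower) and purine and pyrimidine synthesis (-0.12, 7 of 25 higher, 9 lower) had medians near that of all genes.

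Genes of the general stress response were more often called lower than higher. Of 54 genes known to be induced by the stress activators Msn2 and Msn4, 34 were measured; 7 (20.6%) were called higher and 18 (52.9%) lower, with a median of -1.05. SSA4, an inducible Hsp70, had 187 CPM of mRNA against 14.4 and 22.4 CPM of footprints (log2 ratio -3.26), and GSY2, glycogen synthase, had -3.13. GPD1 (3.30), of glycerol synthesis, and the trehalose synthesis genes TPS1 (1.31) and TPS2 (1.60) were called higher. With a minimum of 100 mRNA and 20 footprint reads, 23 of these genes were left, with a median of -0.40. Of 53 meiosis and sporulation genes only 8 passed the minimum; 6 were called lower and none higher by edgeR, and 2 were called lower by DESeq2. Autophagy genes (median -0.39, 3 of 27 higher, 8 lower) and peroxisome genes (-0.15, none of 23 higher, 6 lower) had shares of lower calls, 29.6% and 26.1%, no greater than that of all genes. Their shares of higher calls, 11.1% and 0.0%, were below the 30.5% of all genes.

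Histone genes, whose products pair in the nucleosome, lay on both sides of the median. Both H2B genes, HTB1 (3.24) and HTB2 (3.43), and both H3 genes, HHT1 (1.55) and HHT2 (1.82), were called higher, while both H2A genes, HTA1 (-1.11) and HTA2 (-1.68), and the H4 gene HHF1 (-1.85) were called lower. HTB2 had 25.1 CPM of mRNA against 285 and 217 CPM of footprints, and HTA2 had 552 CPM against 204 and 124. For this pair the mRNA levels were farther apart than the footprint levels. The members of each pair share near-identical coding sequence, so their counts are uncertain. Among 24 cyclin and cell cycle genes 10 were called higher and 3 lower (median 0.66), with WHI5 (2.43), a repressor of the start of the cycle, highest and ESP1 (-1.33), separase, lowest. Among 68 kinase genes 24 were called higher and 17 lower (median 0.23), led by FUS3 (4.59), the mating MAP kinase.

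Genes with upstream reading frames, a translational intron or a programmed frameshift did not share a direction. Of 22 listed genes 19 were measured; 7 were called higher, 3 lower and 9 neither, with a median of 0.48. GCN4, the activator of amino acid synthesis whose upstream frames restrain it in rich medium, had 582 mRNA reads against 302 and 619 footprint reads. Its log2 ratio was 0.64 and did not pass edgeR's test (adjusted p = 0.11). Reads on the upstream frames are not separable in counts per gene. CPA1, of arginine synthesis, which has a peptide-coding upstream frame, was called higher (1.43), as were SCH9 (3.32), DCD1 (1.89), CAD1 (1.43), INO2 (1.31), ABP140 (1.05) and SCO1 (1.03). DESeq2 did not call SCO1 (adjusted p = 0.069). HOL1 (-3.63), a membrane transporter with an upstream frame, and FOL1 (-1.84), of folate synthesis, were among those called lower. YAP1 (-0.48), OAZ1 (-0.41), CBS1 (-0.13), LEU4 (-0.07), PPR1 (0.05), SLM2 (0.26) and HAP4 (0.68) were not called. EST3, a telomerase subunit made by frameshifting, was at 0.48 and not called either, with 34 footprint reads in the first library and 155 in the second.

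The ratio fell with the mRNA level. When genes were ranked by mRNA reads and divided into 5 equal classes, the median ratio went from 1.25 in the class of 50 to 139 reads to 0.41, -0.11, -0.42 and -0.77 in the class of 1203 to 350560 reads. The mRNA reads enter both sides of this comparison and do not make an independent test. In the [psi-] libraries, which share no reads with the ranking, the medians of the same classes were 0.44, 0.08, -0.01, -0.26 and 0.11, without a fall into the top class.

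Footprint libraries also held reads of RNAs that are not translated. SCR1 had a log2 ratio of -4.20, NME1 (the RNA of RNase MRP) -4.80 and TLC1 (telomerase RNA) -4.17, and all 3 were called lower. RPR1, the RNA of RNase P, had 7970 and 9650 CPM in the footprint libraries and 8650 CPM in the mRNA library, and its log2 ratio of 0.14 lay near the median of all genes. Some translated genes, among them SFT1, YRO2 and ADP1, thus lay below SCR1 on this scale.

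Genes that missed a minimum were as follows. Among the features left out, 2208 had fewer than 50 mRNA reads, and 677 of these nevertheless had a mean of 10 or more footprint reads. The other 156 failed the footprint minimum alone, 147 of them protein coding and 31 with 200 or more mRNA reads. HSP30, a stress-induced plasma membrane protein related to YRO2, had 1967 mRNA reads against 4 and 9 footprint reads, and AVT7, a vacuolar amino acid transporter, had 736 against 10 and 8. Just inside the footprint minimum lay PHM8, AAD10 and RDR1, with a mean of 10 reads, and just outside it ATG22, QDR2 and TOS8, with 9.5. At the mRNA minimum SIP4, NCW2 and BER1 had 50 reads, and SPO7, ADR1 and YDR239C had 49. Of the 4244 genes, 60 overlap another RefSeq gene, and their reads are uncertain unless counting used the strand.

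The same ratio was computed from the [psi-] libraries for comparison. Over the 3807 genes measurable in both strains the log2 ratios correlated at Pearson's r = 0.775, a description across genes. Some secretory and membrane groups had low medians in [psi-] as well, at -3.32 for Golgi mannosyltransferases, -3.30 for protein O-mannosyltransferases, -2.22 for plasma membrane transporters and -1.30 for translocon and ER genes. Others did not share this. The translocon channel and its partners had 0.49 in [psi-] against -0.79 in [PSI+], and signal recognition particle proteins -0.02 against -0.74. The membrane V0 sector had -0.48 against -1.33. These last lists were drawn up after ratios had been seen. Initiation factors (1.67), elongation factors (2.09) and tRNA synthetases (1.46) had high medians in both. Other groups had different medians: the [psi-] medians were 2.89 for ribosomal protein genes, 2.31 for ribosome biogenesis genes, 1.61 for RNA polymerase subunit genes and -3.71 for membrane ABC transporters, against 0.42, 0.88, 0.11 and -1.91 in [PSI+]. Mitochondrial ribosomal protein genes had 0.40 in [psi-] against -0.38 in [PSI+], and TCA and glyoxylate cycle genes -1.64 against -0.27. Cell wall and GPI protein genes had -0.91 in [psi-] against 0.29 in [PSI+].

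The difference between strains was tested as the interaction of strain and library kind in edgeR over 5405 genes; 896 genes (16.6%) had a higher ratio in [PSI+] and 1082 (20%) a lower one. The lower ones included 95 of 136 ribosomal protein genes and 93 of 109 biogenesis genes, with 0 and 1 higher. Among plasma membrane transporters 19 of 44 were higher in [PSI+] and 6 lower, and among Golgi mannosyltransferases 6 of 20 were higher and 2 lower. Of 39 cell wall and GPI protein genes 17 were higher in [PSI+] and 1 lower. Each strain has 1 mRNA library, so a difference between strains and between these 2 mRNA libraries cannot be told apart. Ribosomal protein genes held 17.5% of the mRNA reads in [PSI+] and 5.63% in [psi-], while their footprint shares were 23.5% and 19.3% against 22.7% and 22.8%. Per degree of freedom, a chi-square test gave 1.27 between the [psi-] footprint libraries and 19.35 or more between runs of the 2 [PSI+] libraries, where counting error alone gives about 1. The spread pooled in this test is therefore smaller than that of [PSI+] alone. With 1 or the other [psi-] library left out, 421 and 487 genes were higher and 559 and 678 lower. The ribosomal protein genes lower in [PSI+] then numbered 90 and 101, the biogenesis genes 60 and 69, and the transporters higher in [PSI+] 15 and 13, while Golgi mannosyltransferases had 1 and 2 higher and 0 lower. Scaled by library totals, which moves the median of all genes to 0.45, the counts were 1535 higher and 640 lower.

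Mating-type markers were checked. The a-specific genes STE2, STE6, BAR1, MFA1 and MFA2 had 168 to 1115 reads in each footprint library. In the mRNA library STE2 had 2685 reads and STE6 2265, but BAR1 had 145, MFA1 76 and MFA2 169. Of the alpha-specific genes, MF(ALPHA)2 had 0 reads in every library, MF(ALPHA)1 had at most 2, SAG1 at most 6, and STE3 5 and 18 footprint reads and 31 mRNA reads.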

How the data were processed

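Footprint and mRNA reads per gene were taken from the table of counts deposited by the authors. Per the submitters' processing notes and the deposited description, reads were mapped with Bowtie 0.12.7 to sacCer2 and counted with HTSeq 0.5.3p3 in intersection-nonempty mode; DESeq 1.6.1 made the authors' own comparisons, which are not used here. A directional kit is named in the labels; strand use in counting and the handling of reads with several matches are not given in the sources used here. No deposited value is below 1, so 1 was subtracted from each column. All 8 columns belong to a sample. The 4 [PSI+] footprint columns form 2 pairs within which counts differed by no more than sampling noise. A chi-square test over genes with 20 or more reads gave 1.01 per degree of freedom in one (p = 0.262) and 1.0 in the other (p = 0.546), against 19.35 or more in all other pairings; each pair was summed and counted as 1 replicate, whose number is only a name. Whether the 2 libraries came from separate cultures is stated as biological replication in the deposited description; p-values measure the spread between them only.

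CPM used library totals, and the limit that 0 reads allows is 3 reads, which is 0.546 to 1.201 CPM across the 3 [PSI+] libraries; such limits cover counting error only. edgeR 4.0.16 in R 4.3.3 was used with TMM factors (0.955, 0.999 and 1.048), glmQLFit and glmQLFTest, with Benjamini-Hochberg adjusted p under 0.05, on genes with 50 or more mRNA reads and a mean of 10 or more footprint reads. Log2 ratios on edgeR's scale lay 0.01 below those given in the text (median over genes). The interaction with strain used all 6 YPD libraries and genes kept by filterByExpr with a minimum count of 10. In data simulated for these 4244 genes, the ratio test found 92% of genes changed by 2 log2 units and 100% of those changed by 4. Of the genes it called, 1.54% were unchanged ones. The strain test found 75% and 100%, and 3.85% of the genes it called were unchanged ones. The simulation gave the mRNA library the same spread as the footprint libraries and changed few genes, so these rates need not hold for the data.

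Genes were named by a rule: the 10 highest and 10 lowest protein-coding genes with 200 or more mRNA reads and the same side of the median in both libraries, the 10 with the most footprints, the highest and lowest member of each list with members of textbook role, every gene of the upstream-frame list except 1 that is not reported here, and SUP35, SUP45, HSP104 and ADE1. Further genes were named after their values were seen, to show the members of a complex or a group side by side. The members, the 35 lists and the tests were chosen with earlier results of these data known, and 19 further lists were drawn up after ratios had been seen. Lists are described by counts and medians without a set test. Gene names came from RefSeq R64, which matched 5922 of 6608 features; as the reads were mapped to another build, no coordinates, lengths or sequences were used, and ratios by coding length or start-codon context were not analysed here. Alternatives were other scalings (library totals, RLE, upper quartile), DESeq2 1.42.0, other minimum counts, counts as deposited, untranslated RNAs left out, and each footprint library left out.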

Additional observations from a re-analysis of the deposited data

Results flagged for a closer look

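Of the genes named by rule in the report, 11 had ratios that differed between strains in edgeR's interaction test (Benjamini-Hochberg adjusted p under 0.05), given here as the log2 ratio in [PSI+] minus that in [psi-]. The ratio was higher in [PSI+] for ALD6 by 2.99 (adjusted p = 0.0027), TDH3 by 2.90 (0.0028), ADP1 by 2.07 (0.019), PEP1 by 1.66 (0.042), SAH1 by 1.00 (0.045), DPS1 by 0.96 (0.023) and ILV5 by 0.88 (0.029). It was lower for SUP35 at -1.82 (0.0039), POL4 at -1.37 (0.041), RPS15 at -1.32 (0.017) and RPL39 at -1.14 (0.019), all by edgeR. ADP1 and PEP1 had very low ratios in both strains, at -6.12 and -5.22 in [PSI+] and -8.23 and -6.97 in [psi-]. Each difference rests on 1 mRNA library per strain, so strain and mRNA library cannot be told apart, and TDH3 has a near-identical copy. Without 1 of the [psi-] footprint libraries, 8 of the 11 were no longer called by edgeR (adjusted p from 0.054 to 0.31): ILV5, DPS1, RPS15, RPL39, SAH1, ADP1, POL4 and PEP1; ALD6, TDH3 and SUP35 were called in each such fit. RPL39 and POL4 also missed the threshold with DESeq2 (adjusted p = 0.050 and 0.20) and with library totals in edgeR (0.092 and 0.12), SAH1 with counts as deposited (0.054), and POL4 with RLE factors (0.058) and counts as deposited (0.051).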

How the results depend on the processing

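No paired analysis was possible because each strain has 1 mRNA library and the replicate numbers of the [PSI+] footprint libraries are only names. Under DESeq2 1144 genes were called higher and 1021 lower; without a minimum, 1702 and 1721. Leaving out 1 footprint library (fit over all YPD libraries, in which the [psi-] pair sets the spread) gave 1947 to 1971 lower calls against 1278, including all 1278. With all YPD libraries sharing 1 spread, lower calls were 24 for ribosome biogenesis (against 14), 24 for amino acid synthesis (14) and 14 for transcription factors (7). With a minimum of 100 mRNA and 20 footprint reads, list medians were 1.08 (initiation factors), 1.67 (tRNA synthetases), 1.01 (glycolysis), 0.99 (ribosome biogenesis), -1.35 (translocon and ER), 0.60 (transcription factors) and -0.40 (Msn2 and Msn4 genes). With 1 footprint library at a time they ran from 0.28 to 0.81 (ribosomal proteins), 1.40 to 1.59 (initiation), 1.52 to 1.54 (tRNA synthetases), 0.83 to 0.89 (transcription factors) and -1.04 to -0.91 (Msn2 and Msn4 genes). No gene named by rule and called in the ratio changed sign, and RPL41B (DESeq2 adjusted p = 0.056) and SCO1 (0.069) lost their calls under DESeq2 alone of the alternatives. Uncalled ratios changed sign as follows: RPS31 0.07 and LEU4 0.04 (higher minimum); HSP104 -0.01, PPR1 -0.10 (all YPD libraries in the fit); HSP104 -0.06, PPR1 -0.15 (no minimum); PPR1 -0.07 (library totals) and -0.05 (upper quartile); and, with each footprint library left out, RPS31 -0.42 to 0.04, HSP104 -0.11 to 0.06, EST3 -0.54 to 1.18, SLM2 -0.04 to 0.24, LEU4 -0.55 to 0.08 and PPR1 -0.13 to -0.10. For the difference between strains, DESeq2 called 564 higher and 591 lower, and library totals 1535 and 640, so that 70.6% of calls were higher against 45.3%. Leaving out a library gave 421 to 1620 higher and 559 to 1861 lower. Uncalled strain differences that changed sign were ALE1 0.28, FBA1 0.40, EST3 0.23, PPR1 0.15 and HOL1 0.20 (library totals), FBA1 0.08 (DESeq2 and RLE), and, with each library left out, YRO2 -0.05 to 1.35, ALE1 -0.62 to 0.17, FBA1 -0.20 to 0.00, CDC19 -0.06 to 0.24, SUP45 -0.11 to 0.17, INO2 -0.14 to 0.52, EST3 -1.41 to 0.29 and SLM2 -0.13 to 0.13. The causes were not tested. Genes near 50 mRNA or 10 footprint reads have the least certain ratios.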
